A study of Canis lupus familiaris with 14 samples.

Results

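Chromosome 36 is one of the small autosomes of the dog. The genes described here are those that the deposited table places on chromosome 36 of the CanFam3.1 assembly with 2 or more exons, after overlapping exon intervals of a gene were merged. There are 234 such genes among the 30951 genes of the table, and a further 52 genes of the chromosome have a single exon. The chromosome was chosen from the measured values, because its genes had the largest rise in mean level in lymphoma among all chromosomes in these same libraries. Levels and differences between the groups are therefore given as a description, with no test of the chromosome as a whole.

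Whole blood RNA was sequenced from 7 dogs labelled lymphoma, a cancer of lymphocytes, with the condition given as disease. It was also sequenced from 7 dogs labelled non-lymphoma, given as control. The series design names these controls as dogs with a disease other than lymphoma, so both groups are of sick animals, and which disease each control had is not stated. The labels give no treatment, time point, age, breed or lymphoma subtype, and replicates are separate samples with no further statement on the animals. Total counts per library ran from 9845059 to 14831589 in lymphoma, and non-lymphoma libraries had 13522628 to 21610927. In bulk blood, fewer cells of a type and less RNA per cell cannot be told apart.

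Blood RNA comes from several cell types at once, mainly red cell precursors, platelets, granulocytes, monocytes and lymphocytes, so a level in whole blood is an average over them. The dog chromosome is known to share its gene order in large part with the long arm of a human chromosome that carries the HOXD homeobox cluster, which patterns limbs, and TTN, which encodes the muscle protein titin. In the RefSeq table of another dog assembly, UU_Cfam_GSD_1.0, chromosome 36 has 168 protein-coding genes. These include ITGA4, a subunit of an integrin that lymphocytes use to leave the blood, IFIH1, a sensor of viral RNA, DPP4, a peptidase on the surface of T cells, and NFE2L2, a regulator of the response to oxidative stress. Of 14 symbols looked up, 13 are in that table. None of its entries carries an identifier of the count table (0 matched), so no row can be given one of these names. Position, exon structure and level stand in for names, and levels of blood cell marker genes were not checked here for the same reason.

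Levels are CPM, read counts relative to library size, scaled between libraries with the TMM method of edgeR, and a level per length is CPM per kilobase of exon. Of the 234 genes, 85 passed the edgeR filter on low counts (36.3%, against 48.7% of all 24686 genes with 2 or more exons). A gene can pass this filter through the higher group alone. Of the 149 others, 12 had no count in any library, 84 had 1 to 10 counts over all 14 libraries and 53 had more. Among the 85, 5 share exon bases with another gene, which leaves the counts of these 5 uncertain.

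The mean log2 CPM over the 85 genes was 4.27 ± 0.18 in lymphoma against 3.92 ± 0.21 in non-lymphoma (SD, n = 7 each). Its lowest, median and highest values were 4.0, 4.32 and 4.46 in lymphoma and 3.56, 3.91 and 4.18 in non-lymphoma. All 7 lymphoma libraries lay above the non-lymphoma median and 5 of 7 above every non-lymphoma library, while lymphoma replicates 3 and 6 lay within the non-lymphoma range. The difference of 0.36 in log2 CPM is a 1.28-fold difference of geometric means. These are the values that picked the chromosome. The share of raw counts that fell on the 234 genes did not show the same order. It was 0.371 ± 0.0406% in lymphoma against 0.385 ± 0.0413% in non-lymphoma (SD, n = 7 each), and only 2 of 7 lymphoma libraries lay above the non-lymphoma median. The share gives most weight to the most abundant genes and uses no TMM factor, whereas the log2 mean gives each tested gene equal weight. Lymphoma replicates 2 and 7 had the lowest TMM factors, 0.67 and 0.679, and the largest share of counts in their 10 most abundant genes, 49.7% and 49.8%, against 16.6 to 41.9% in the other 12 libraries.

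**Figure D1:**
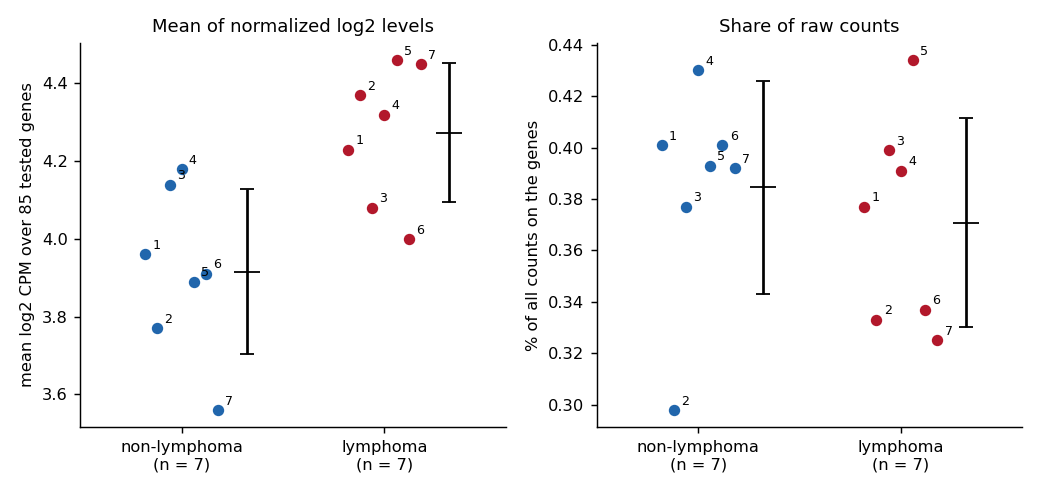
Left, mean log2 CPM over the 85 tested genes of chromosome 36 in each library; right, percent of all raw counts on the 234 genes, with replicate numbers beside the points and mean and SD (n = 7) as bars. On the left 5 of 7 lymphoma points lie above all non-lymphoma points, and on the right the groups overlap (0.371 against 0.385%).

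Of the 85 genes, 61 had a log2 fold change above 0 (71.8%, against 47.3% of all 12836 tested genes). The median log2 fold change was 0.28, and -0.05 over all tested genes, with the middle 50% of the 85 genes between -0.04 and 0.81. By edgeR's quasi-likelihood test, adjusted over all tested genes at 0.05, 18 of the 85 genes were called higher in lymphoma (21.2%, against 9.21% of all tested genes). Only 3 were called lower (3.53%, against 7.4%). In 2 genes every lymphoma library lay above every non-lymphoma library (2.03% of all tested genes did so), and in 1 gene every lymphoma library lay below (1.75% of all). Because the same contrast picked the chromosome, nothing is read from these shares. The 64 genes with no call had a mean difference of 0.19, and 43 of them lay above 0. Without the 5 largest differences the mean over the chromosome was 0.27. Of the 85 genes, the 43 with the higher average level had a median log2 fold change of 0.21 and the 42 with the lower one 0.63.

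The genes just outside the exon threshold did not form one pattern. Only 3 of the 52 single-exon genes of the chromosome passed the filter, with log2 fold changes of -1.05 (SE 0.39), 1.45 (SE 0.36) and -0.16 (SE 0.17). The gene with 1.45 was called higher. Just inside it, the 3 tested genes with 2 exons had -1.55 (SE 0.37), 0.88 (SE 0.41) and 0.08 (SE 0.29).

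Along the chromosome the difference lay mainly between 5 and 25 Mb. In that span the 4 bins of 5 Mb held 13, 15, 25 and 18 tested genes, with differences in mean log2 CPM of 0.48, 0.55, 0.36 and 0.52. In the bin from 5 to 10 Mb, where the mean was 4.94 ± 0.11 in lymphoma and 4.46 ± 0.18 in non-lymphoma (SD, n = 7 each), all 7 lymphoma libraries lay above all non-lymphoma libraries. The ends of the chromosome differed from the middle. The first 5 Mb held 38 of the genes but only 5 tested ones, whose mean was 3.74 ± 0.21 in lymphoma and 4.27 ± 0.25 in non-lymphoma (SD, n = 7 each). There 2 of the 5 were called lower, and no lymphoma library reached the non-lymphoma median. From 25 to 30 Mb the 9 tested genes had a mean difference of 0.0, with 3 of them above 0 and 1 called higher. Beyond 30 Mb 8 genes were listed and none was tested.

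Over running windows of 10 consecutive tested genes, 75 of 76 windows had a difference above 0. The median window difference was 0.42. The largest, 0.89, covered genes 64 to 73 in chromosome order, between 21908947 and 24584185, where all 10 genes had a log2 fold change above 0 and 3 were called. In that window the lymphoma libraries ran from 2.83 to 3.63 in mean log2 CPM and the non-lymphoma libraries from 1.57 to 2.95. The smallest, -0.05, covered the first 10 tested genes, and windows share genes, so neighbouring values are not separate. The longest stretch of neighbouring tested genes with log2 fold changes above 0 held 12 genes, and the longest below 0 held 3.

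**Figure D2:**
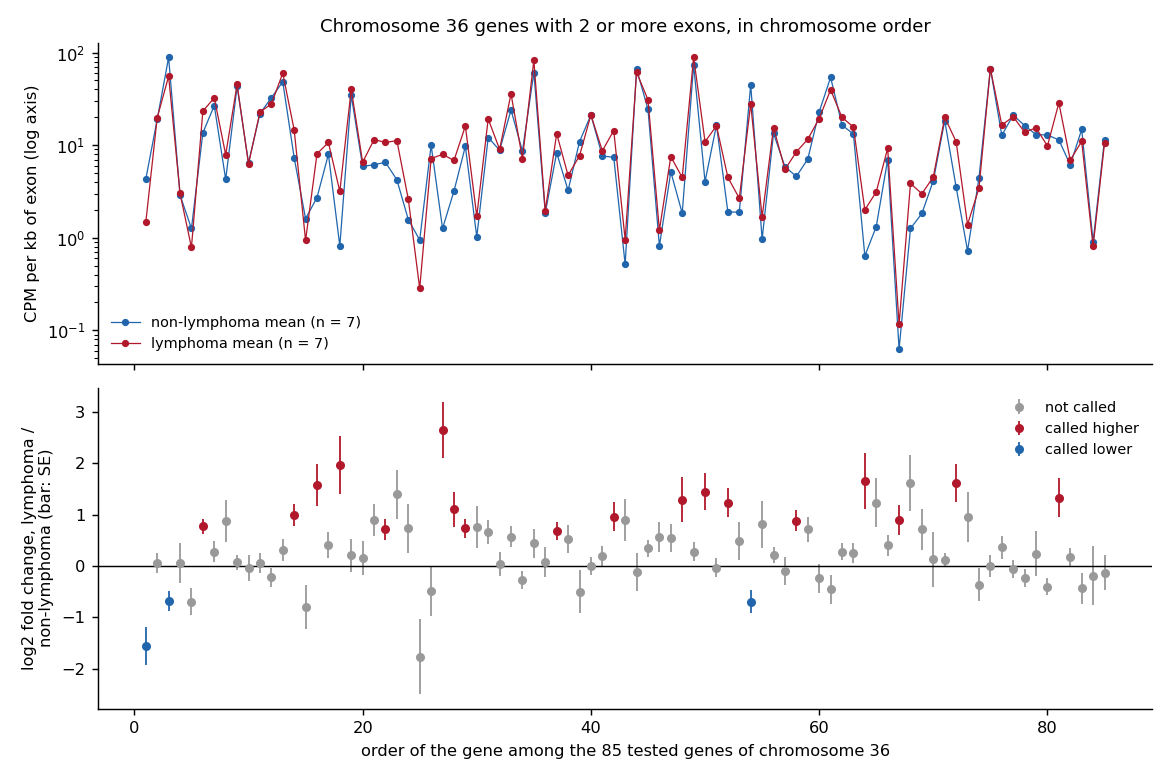
Top, mean CPM per kilobase of exon in each group (n = 7, log axis) and bottom, log2 fold change with SE, for the 85 tested genes in chromosome order. Called genes are coloured; the 18 higher calls lie from gene 6 to gene 81 and 2 of the 3 lower calls are genes 1 and 3.

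The largest rise on the chromosome was that of ENSCAFG00000041315, a gene of 12 exons at 14207014 to 14233633 on the plus strand (gene 27 in order). Its CPM ran from 3.78 over a median of 7.12 to 37.8 in lymphoma, and from 0.88 over 1.35 to 5.05 in non-lymphoma libraries. Lymphoma replicates 2 and 7 were highest, at 37.8 and 16 CPM, and 6 of 7 lymphoma libraries lay above every non-lymphoma library. The log2 fold change was 2.64 (SE 0.54), a 6.22-fold difference. The call held in all 14 runs with 1 library left out, with log2 fold changes of 2.05 to 3.07. The span of this gene overlaps another annotated gene, but no exon does.

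Of the 85 genes, those directly after it, genes 28 and 29, were also called, and the next called higher starts at 15819138. After gene 29, a single-exon gene outside the 85, at 14401508 to 14402233, was called higher too. Its log2 fold change was 1.45 (SE 0.36). The gene before that largest rise (gene 26, at 13866959 to 13880179) was not called and had a log2 fold change of -0.49 (SE 0.48). The gene at 14256171 to 14298777 (gene 28, 15 exons) had a median of 21.8 CPM in lymphoma and 9.32 in non-lymphoma, with 5 of 7 lymphoma libraries above the non-lymphoma range and a log2 fold change of 1.10 (SE 0.34). Leaving out any of lymphoma replicates 1, 2 and 5 or non-lymphoma replicates 2, 5 and 6 ended that call, and the log2 fold change then stayed at 0.93 or more. The gene at 14307160 to 14353412 (gene 29, 14 exons) ran from 29.6 to 58.9 CPM in lymphoma and from 19.4 to 33.7 in non-lymphoma, with a log2 fold change of 0.73 (SE 0.19). Lymphoma replicates 1 and 6 lay within its non-lymphoma range. It was picked as a neighbour after its values were seen.

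Other rises were larger in level. The gene with the highest median CPM among the 12 largest rises, at 7649727 to 8261048 (gene 16, 33 exons), is also the longest tested gene of the chromosome, with a span of 611322 bases. It ran from 21.6 over a median of 77.4 to 106 CPM in lymphoma and from 8.06 over 21.9 to 56.9 in non-lymphoma. Lymphoma replicate 1 was the lowest, just under the non-lymphoma median, and replicate 5 was the highest. Its log2 fold change was 1.57 (SE 0.41). The gene at 24187672 to 24445417 (gene 72, 10 exons) ran from 18.3 over 31.7 to 83.6 CPM in lymphoma and from 5.55 over 15.3 to 18.2 in non-lymphoma. It is 1 of the 2 genes whose groups did not overlap, with lymphoma replicates 2 and 7 far above the rest at 83.1 and 83.6 CPM, and a log2 fold change of 1.62 (SE 0.37). The gene at 26135065 to 26168298 (gene 81, 9 exons) had the same highest pair of libraries, with 139 CPM in lymphoma replicate 2, 89.2 in replicate 7 and a lymphoma median of 42.1, against a non-lymphoma median of 24.5. Its log2 fold change was 1.33 (SE 0.38), and the call ended without lymphoma replicate 2 or 7, or without non-lymphoma replicate 5, with log2 fold changes of 0.98 and above.

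The other gene whose groups did not overlap had a smaller difference and closely spaced values. It has 13 exons at 5024838 to 5072660 (gene 6) and ran from 60.8 over 71.3 to 89.0 CPM in lymphoma and from 32 over 38.4 to 52.5 in non-lymphoma. Its log2 fold change was 0.77 (SE 0.15). The SD of log2 CPM was 0.17 in lymphoma and 0.26 in non-lymphoma libraries (n = 7 each). This gene lies outside the rule for single genes, as it is not among the 12 largest rises, and was picked after its values were seen.

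A second order of libraries was seen among the rises. ENSCAFG00000010630, a gene of 19 exons at 9886820 to 10083395 on the minus strand (gene 18), had its highest CPM in lymphoma replicates 4, 1 and 5, at 35.9, 29.5 and 19 CPM. The other lymphoma libraries ran from 3.64 to 9.31, within the non-lymphoma range of 1.09 to 10 CPM. The log2 fold change was 1.96 (SE 0.56), and the call ended without any of lymphoma replicates 1 and 4 and non-lymphoma replicates 5 and 6, with log2 fold changes of 1.64 and above. The gene at 18178511 to 18360446 (gene 50, 12 exons) was highest in the same 3 libraries, at 40.3, 38.2 and 24.1 CPM for replicates 1, 5 and 4. Its non-lymphoma libraries ran from 4.32 to 10.6 CPM, and its log2 fold change was 1.44 (SE 0.36). The genes at 17576169 to 17585116 (gene 48) and at 21908947 to 22021426 (gene 64) shared that order, with log2 fold changes of 1.29 (SE 0.43) and 1.65 (SE 0.54). Calls of both were among the least stable. For gene 48 the call survived only the removal of lymphoma replicate 2, 6 or 7 (log2 fold changes of 0.86 to 1.48 over the 14 removals). For gene 64 it survived the removal of lymphoma replicate 3, 6 or 7 and of non-lymphoma replicate 1, 3 or 4 (1.40 to 1.83).

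Among the 18 genes called higher, 6 had lymphoma replicates 2 and 7 as the highest pair and 4 had replicates 1, 4 and 5 as the highest 3. Replicates 3 and 6 were highest in none. The ratio of the highest to the lowest lymphoma library ran from 1.43 to 16.8, with a median of 3.82. Replicates 2 and 7 are the libraries with the largest share of counts in their 10 most abundant genes, as given above. Whether this bears on those genes was not tested. The order of libraries was noticed in the values, so it is given as a description. No count of these orders over all tested genes is given beside it, so they are not shown to be particular to this chromosome.

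**Figure D3:**
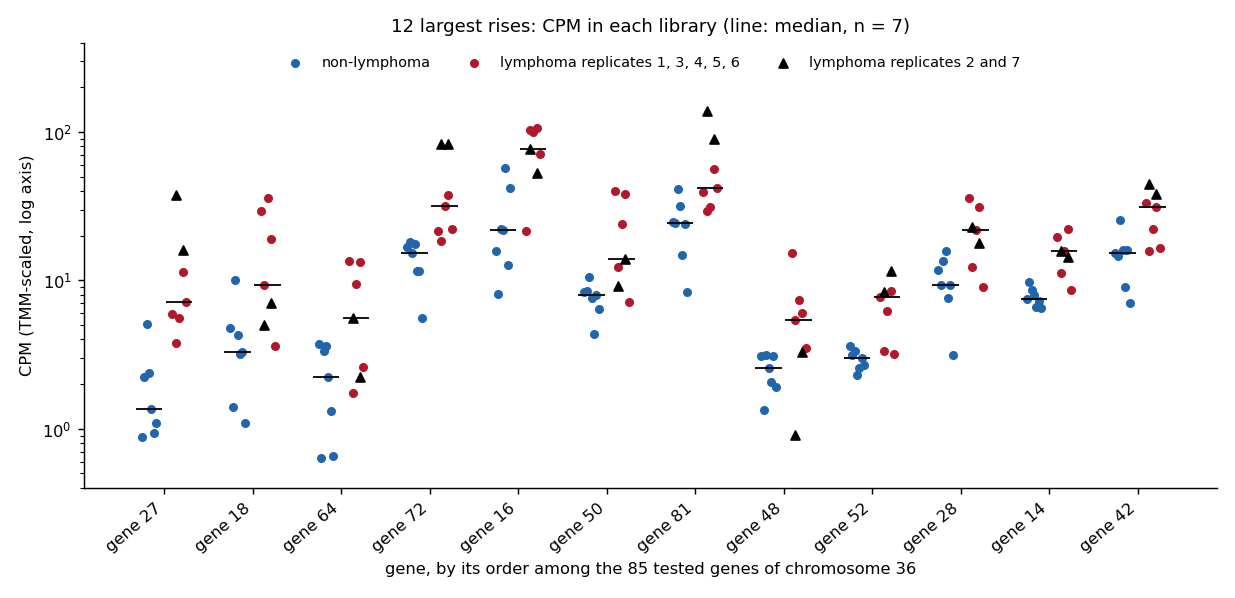
CPM (log axis) in each library for the 12 genes with the largest rises, labelled by their order along the chromosome, with group medians as lines (n = 7). Lymphoma replicates 2 and 7 (triangles) are the highest pair in genes 27, 72, 81 and 42, and lie below replicates 1, 4 and 5 in genes 18, 64, 50 and 48.

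The remaining genes of the 12 had smaller fold changes. At 18453050 to 18474047 (gene 52, 8 exons) the log2 fold change was 1.23 (SE 0.28), with 5 of 7 lymphoma libraries above the narrow non-lymphoma range of 2.31 to 3.61 CPM. At 6889622 to 6984974 (gene 14, 13 exons) it was 0.99 (SE 0.21), with lymphoma libraries from 8.61 to 22.3 CPM and non-lymphoma libraries from 6.48 to 9.75. At 16310710 to 16378017 (gene 42, 12 exons) it was 0.96 (SE 0.29), a call that survived only the removal of lymphoma replicate 3, 4 or 6 and of non-lymphoma replicate 3 or 4 (0.82 to 1.14 over all removals). Over all 18 genes called higher, 11 kept the call in every such run, 2 lost it in 1 to 5 runs and 5 in 6 to 14 runs.

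Only 2 genes met the rule for falls. ENSCAFG00000009258, a gene of 11 exons at 3431934 to 3503140 on the minus strand (gene 3), is also among the 5 genes with the highest level per length. Its CPM ran from 80.2 over 120 to 156 in lymphoma, below most of the non-lymphoma values of 140 over 182 to 228, with 5 of 7 lymphoma libraries below the non-lymphoma range. The log2 fold change was -0.68 (SE 0.19), and -0.76 to -0.60 with 1 library left out, where removing lymphoma replicate 4 or non-lymphoma replicate 6 ended the call. ENSCAFG00000013271, a gene of 11 exons at 18576813 to 18697103 on the minus strand (gene 54), ran from 34.7 over 48.3 to 71.7 CPM in lymphoma and from 48.2 over 75.9 to 117 in non-lymphoma. Its log2 fold change was -0.69 (SE 0.22), and the call survived only the removal of lymphoma replicate 3 and of non-lymphoma replicate 1 or 3 (-0.80 to -0.58 over all removals). The third gene called lower, with 2 exons at 506975 to 507575, was below the level the rule asks for. Its CPM was 0.445 to 1.35 in lymphoma, below the 1.46 to 3.93 of the non-lymphoma libraries, from 3 to 16 and from 24 to 77 counts, and was the gene whose lymphoma libraries all lay below. It is named because it completes the count of 3.

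Besides the called gene 3, the 5 genes with the highest level per length were the genes at 18024627 to 18077587, 15526564 to 15675678, 24653408 to 24729057 and 16776863 to 16855449 (genes 49, 35, 75 and 44). Their mean levels were 89.0, 82.6, 67.3 and 61.1 CPM per kilobase in lymphoma and 73.5, 60.8, 67.2 and 66.5 in non-lymphoma. None of these 4 was called, with log2 fold changes of 0.28 (SE 0.19), 0.44 (SE 0.28), 0.0 (SE 0.22) and -0.12 (SE 0.37). Gene 44 spanned 98.0 to 602 CPM among non-lymphoma libraries alone, a range that holds every lymphoma library. The gene with most exons, 197 with 88447 exonic bases at 22147824 to 22417826 (gene 67), had the lowest level per length of all 85 genes, 0.116 CPM per kilobase in lymphoma and 0.0626 in non-lymphoma. Its CPM ran from 6.17 over 8.47 to 18 in lymphoma and from 3.51 over 4.63 to 8.42 in non-lymphoma, with a log2 fold change of 0.90 (SE 0.29). It shares exon bases with another gene. Its call ended without any of lymphoma replicates 1, 5, 6 and 7 and non-lymphoma replicates 1, 2, 6 and 7 (0.70 to 1.02 over all removals).

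Members that failed the filter held a further difference. Of the 149 untested genes, 33 had a higher mean CPM in lymphoma and 104 a lower one, so by number they lay the other way from the tested genes. Most had very few counts. No such count over untested genes of other chromosomes is given beside it, so this is not shown to be particular to chromosome 36. With no filter, 222 of the 234 genes could be fitted, 89 of them (40.1%) had a log2 fold change above 0, and their median log2 fold change was -0.36, against -0.45 over all 28663 genes fitted then. By summed level the untested genes lay higher in lymphoma, at 39.7 ± 26.4 CPM against 15.6 ± 5.55 (SD, n = 7 each), and 4 of them, close together, held most of that. Without these 4 the sums were 19.8 ± 10.2 CPM in lymphoma and 15.1 ± 5.33 CPM in non-lymphoma (mean and SD). Their medians, 15.6 CPM in lymphoma and 16.4 CPM in non-lymphoma, lay the other way.

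These 4 genes lie between 10119675 and 10602685, directly after the 19-exon gene 18 described above, and have 11, 3, 29 and 28 exons. A gene of 4 exons among them had no count in any library. They were noticed because they were the genes of the chromosome called higher when only libraries with 5-digit sample numbers were fitted (below), so they were chosen by their values. The gene at 10119675 to 10174438 had 191, 27, 2, 39, 159, 23 and 0 counts in lymphoma replicates 1 to 7, and 0 to 2 counts in each non-lymphoma library. The gene at 10274605 to 10282714 had 14, 5, 0, 49, 178, 41 and 0 counts, against 0 to 2. The gene at 10302191 to 10377923 had 34, 0, 0, 141, 574, 120 and 0 counts, against 0 to 7. In these 3 genes lymphoma replicates 1, 4, 5 and 6 were above every non-lymphoma library and replicate 7 was at 0. Replicate 3 was at 0 in 2 of the 3 genes, and its 2 counts in the first (0.184 CPM) compare with at most 2 counts (0.11 CPM) in a non-lymphoma library. The gene at 10472361 to 10602685, which shares exon bases with a single-exon gene, was less distinct. It had 2, 2, 8, 47, 81, 83 and 0 counts in lymphoma, where non-lymphoma libraries had 2 to 22, so only replicates 4, 5 and 6 were high.

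Summed over the 4 genes, lymphoma replicate 5 had 992 counts (74.4 CPM), replicates 1, 4 and 6 had 241, 276 and 267 counts (16, 23.2 and 19.8 CPM), and replicate 2 had 34 counts (5.16 CPM). Replicate 3 had 10 counts (0.922 CPM), within the 0.14 to 1.35 CPM of the non-lymphoma libraries. Replicate 7 had 0 counts, which allows up to 3 counts or 0.45 CPM by counting error alone. The next tested gene on the chromosome, at 10896128 to 10919000, had 67.0 to 185 CPM in lymphoma, and its groups overlapped, with 44.2 to 152 CPM in non-lymphoma. The filter asks for enough counts in at least 7 libraries, and these genes had CPM above the non-lymphoma range in 3 to 6 of 7 lymphoma libraries.

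**Figure D4:**
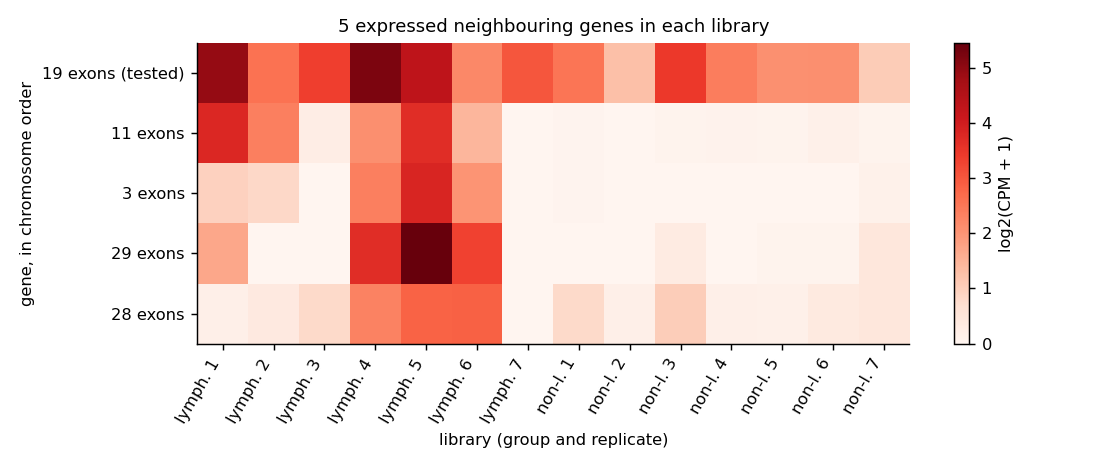
Level as log2(CPM + 1) in each library for the 19-exon gene 18 and the 4 untested genes that follow it along the chromosome. Lymphoma replicate 5 is above every non-lymphoma library in all rows, reaching 43.0 CPM in the 29-exon gene. No non-lymphoma library is above 1.06 CPM in the 4 untested genes.

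The genes of chromosome 36 lie far apart and are long. A tested gene of the chromosome had a median of 19 other annotated genes within 1 Mb on either side, against 35 for other tested genes with 2 or more exons, the lowest value of 39 chromosomes. The median span was 58465 bases against 25576, the highest of the 39. Exonic length was nearly the same, with medians of 2356 and 2124 bases, and so was the level per length in non-lymphoma libraries, with medians of 7.33 and 7.51 CPM per kilobase. In lymphoma these 2 medians were 10.5 and 7.75.

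Across all 39 chromosomes the median log2 fold change fell with gene density. Over chromosomes, Pearson's r with the log2 of median density was -0.87 and Spearman's rank correlation -0.83 (n = 39 chromosomes, all measured in the same 14 libraries). The chromosomes share libraries and scaling, so these values are a description. A line through the other 38 chromosomes gave 0.25 at the density of chromosome 36, where its median was 0.28. For the mean difference the line gave 0.21 and the value was 0.36, a residual of 0.14 where the other chromosomes had a residual SD of 0.09. By the mean difference chromosome 36 ranked highest of 39, followed by chromosomes 29 (0.28), 32 (0.27) and 19 (0.26). By the median log2 fold change it was the third at 0.28, after chromosomes 19 and 29, both 0.33. Thus its place as the largest rise held for the mean and not for the median. No difference between these chromosomes was tested. Their percentages of genes called higher were 21.2 on chromosome 36, 18.5 on 19, 23.8 on 29 and 15.4 on 32.

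**Figure D5:**
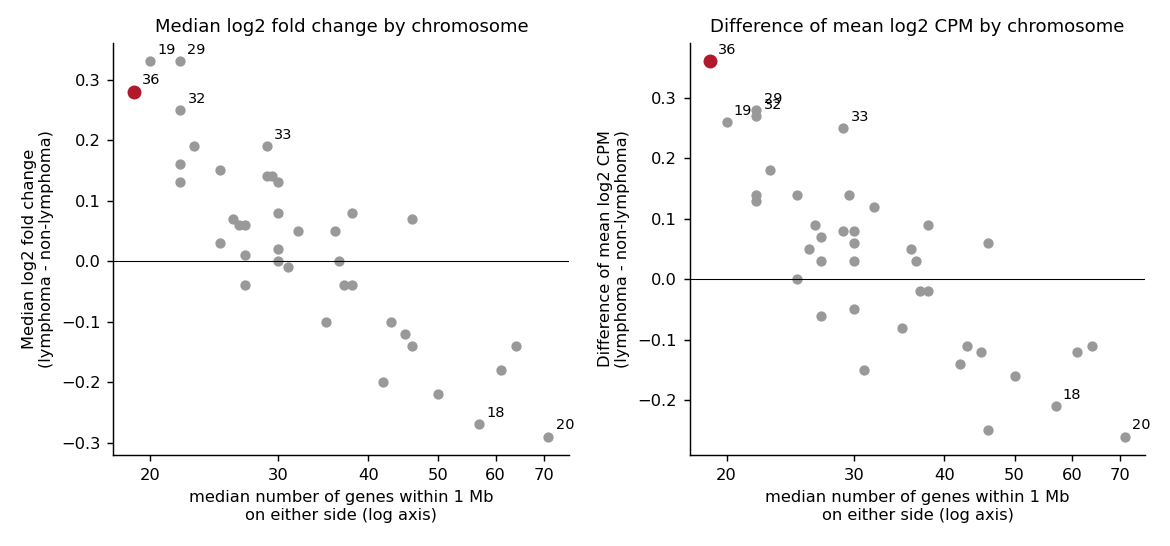
Median log2 fold change (left) and difference of mean log2 CPM (right) of tested genes with 2 or more exons on each of 39 chromosomes, against the median number of genes within 1 Mb (log axis). Chromosome 36 (red) is farthest left at 19 genes, the third on the left axis at 0.28 and highest on the right at 0.36.

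Most of the 85 genes, 81, fell in the lowest of 3 equal classes of gene density over all tested genes with 2 or more exons, at 26 or fewer neighbours. Among these sparse genes the median log2 fold change was 0.31 on chromosome 36 and 0.19 over 3977 genes of other chromosomes. Calls higher made up 22.2% and 14.9%, and calls lower 3.7% and 3.37%. In the highest class of density, where chromosome 36 has no tested gene, the median was -0.30, with 3.22% called higher and 12.7% lower. After each library's trend of level on gene density was removed, the mean over the 85 genes was 0.40 ± 0.09 in lymphoma against 0.26 ± 0.10 in non-lymphoma (SD, n = 7 each). The difference was then 0.14 in place of 0.36, and 3 of 7 lymphoma libraries lay above every non-lymphoma library. Whether gene density or length itself bears on the difference was not tested. Within the chromosome the fold changes showed little relation to density, span or position, with Spearman's rank correlation of 0.07, 0.17 and 0.02 over the 85 genes.

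The spread between libraries was larger on chromosome 36 than on most chromosomes in both groups. The SD of the mean log2 CPM, 0.18 in lymphoma and 0.21 in non-lymphoma, was the third and the highest of 39 chromosomes, where the medians were 0.09 and 0.08. Chromosome 36 also has the fewest tested genes of the 39, 85 where the largest has 751, and the part of this in the SD was not tested. Gene by gene, the median SD of log2 CPM was 0.57 in lymphoma and 0.48 in non-lymphoma, and 52 of 85 genes (61.2%) varied more in lymphoma. Over all tested genes the medians were 0.52 and 0.45, and the percentage was the same, 61.2. Among the 18 genes called higher, 13 varied more in lymphoma. No such share over all genes called higher is given beside it, so nothing is read from it. In single libraries, 46 to 63 of the 85 genes lay above the non-lymphoma median in lymphoma, and 23 to 52 in non-lymphoma. The non-lymphoma libraries set that median, so for each gene only a minority of them can lie above it, and the ranges are not alike. Lymphoma replicate 1 was lowest with 46, and replicate 7 highest with 63. Residual levels of pairs of the genes, after group means were removed, had a median correlation of 0.06 over the 14 libraries, where the 39 chromosomes, this one included, ran from -0.01 to 0.13.

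Within each group the mean over the 85 genes was also set against 3 library measures, which does not use the contrast between groups. In non-lymphoma libraries it was related to the share of the 10 most abundant genes with Pearson's r = 0.76 (exact permutation p = 0.0528, adjusted p = 0.317 over 6 relations, two-sided, n = 7). Spearman's rank correlation was 0.43 (exact permutation p = 0.354, adjusted p = 0.707), and r was -0.04 without the 2 libraries farthest from the median share, so the relation rested on those. In lymphoma r was 0.50 (exact permutation p = 0.241, adjusted p = 0.598) and Spearman's rank correlation 0.46 (exact permutation p = 0.302, adjusted p = 0.707), and r was 0.05 without the 2 farthest. With total counts r was -0.46 in lymphoma (exact permutation p = 0.299, adjusted p = 0.598) and 0.22 in non-lymphoma (exact permutation p = 0.634, adjusted p = 0.864). Spearman's rank correlation was -0.50 (exact permutation p = 0.267, adjusted p = 0.707) and 0.11 (exact permutation p = 0.84, adjusted p = 0.963), and r without the 2 farthest was 0.31 and 0.52. With the number of genes detected at equal depth r was -0.08 and -0.10 (exact permutation p = 0.864 and 0.849, adjusted p = 0.864 for both). Spearman's rank correlation was 0.04 and -0.18 (exact permutation p = 0.963 and 0.713, adjusted p = 0.963 for both), and r without the 2 farthest was -0.39 and 0.34. None of the 6 relations passed after adjustment.

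Sample numbers in the labels have 5 digits in all non-lymphoma and 2 lymphoma libraries (replicates 5 and 6), while the other 5 lymphoma libraries have a number of 4 digits (3 libraries), a number with a suffix or no number. The file header writes the 3 shorter numbers with a leading 0, so the split follows the labels. No label calls this a batch. Over the same 85 genes the 2 lymphoma libraries with 5-digit numbers had a mean log2 CPM of 4.23, which is 0.31 above the non-lymphoma mean. The 2 differed, with 4.46 in replicate 5, the highest of all libraries, and 4.0 in replicate 6. The latter was the lowest lymphoma library and lay within the non-lymphoma range of 3.56 to 4.18. In a fit of the 5-digit libraries alone, all 18 genes called higher above kept a log2 fold change above 0. Of these, 13 passed an unadjusted p of 0.05 and none was called by edgeR after adjustment. These libraries are part of those that gave the 18 calls, so the kept direction and the 13 are no separate check. That fit tested 102 genes of the chromosome and called 4 higher, against 0.562% of all 14580 genes it tested. The 4 were the untested neighbours at 10119675 to 10602685. In that fit a gene can pass the filter through the 2 lymphoma libraries alone, and these 4 genes are high in both. Their entry thus depended on the group where they are high, and nothing is read from the 4 calls or their share. The other form of number holds lymphoma libraries alone, so there it cannot be told apart from the disease.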

How the data were processed

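Per the file headers, the authors counted read pairs per gene over exons with featureCounts 2.0.1, using the Ensembl release 103 annotation of CanFam3.1, with no option for strand, multiple mapping or overlapping genes. The deposited values are raw counts. With no strand option, antisense reads over the exons of a gene cannot be told apart from its own. Counts of genes that share exon bases with another gene are uncertain, as given above. HISAT2 2.2.1 and Subread 2.0.1 are named in the submitters' processing notes, with no role given. Exon lengths are those deposited by the authors. Library preparation is given only as standard Illumina protocols on blood RNA extracted with Trizol, per the labels.

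All 30951 genes entered one fit with edgeR 4.0.16 in R 4.3.3 (filterByExpr, TMM, quasi-likelihood F test, group as the only term, Benjamini-Hochberg adjustment at 0.05), which tested 12836 genes with a biological coefficient of variation of 41.5%. SEs are the absolute log2 fold change over the square root of F. Log2 CPM used a prior count of 2. A p-value here reflects only how these libraries vary, which may be technical. The procedure was tested on simulated data. Gene density was removed with a lowess of log2 CPM on log2 density in each library. Relations within groups used exact permutation over 5040 pairings.

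Single genes were named by a rule: the 12 largest rises and up to 8 largest falls among genes called, with an average log2 CPM of at least 1 with 6 or more of the 7 lymphoma libraries beyond the non-lymphoma median in the direction of the change. The 5 genes with the highest CPM per kilobase and the gene with most exons were added. The chromosome, the rule and the lists were chosen with earlier results of these data known. Marker lists could not be matched to identifiers and were not used. Alternatives used DESeq2 1.42.0, limma 3.58.1 (voom), other scalings, filters, thinning to 9845059 counts and subsets of libraries. Python 3.11.15, numpy 2.4.6, scipy 1.17.1, pandas 2.3.3 and statsmodels 0.14.6 were used.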

Additional observations from a re-analysis of the deposited data

Results flagged for a closer look

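Of 42 groups of 7 libraries examined for a library far from the rest, 2 held one, and chance alone flags about 1 group in 20 (2.1 here). Each value in parentheses is the distance from that library to its closest neighbour as a fraction of the whole spread of its group. On the chromosome 36 genes fell 0.298% of the counts of non-lymphoma replicate 2, against 0.377 to 0.43% in the other 6 (0.592). Non-lymphoma replicate 7 had the lowest log2 CPM of the gene starting at 24187672, with 5.55 CPM against a non-lymphoma median of 15.3 (0.607).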

How the results depend on the processing

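The mean difference of the chromosome 36 genes, 0.36, was 0.31 (without lymphoma replicate 5) to 0.39 (without lymphoma replicate 6) with 1 library left out. It moved to 0.05 with no filter on low counts, over 222 genes, and to 0.14 with the trend on gene density removed. The median log2 fold change of 0.28 turned to -0.36 with no filter, and was 0.25 to 0.36 with 1 library left out. The number of genes called higher was 18 (9.21% of all tested genes were called higher). It was 4 in the 5-digit libraries (0.562% of all), none of them among the 18. With the replicate block it was 6 (3.43%), 5 of them among the 18. It was 12 to 21 with 1 library left out (6.36 to 10.8%). The number called lower was 3 (7.4% of all). It was 5 with no filter (3.95%) and 5 with DESeq2 (11.5%). It was 0 in the 5-digit libraries (0.151%), 0 with the replicate block (2.22%), and 1 to 3 with 1 library left out (4.39 to 8.62%). Both 0 counts are from edgeR, with 3 and 5 lower genes at an unadjusted p under 0.05, and limma-voom on all libraries called 3. The cause of these changes was not tested, but the 5-digit fit has only 2 lymphoma libraries. DESeq2 called 25 genes higher (13.3% of all). The higher calls were 18 with RLE factors, 15 with the upper quartile and 22 when TMM left out the 20 most abundant genes, and 15 of the 18 were called under all 3. The balance of calls over all genes turned from 1182 higher and 950 lower to 985 and 1181 with upper-quartile factors. For the mean, prior counts of 0.5 and 5, the median over genes (0.44), equal depth and the inclusion of single-exon genes kept its direction.

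Replicate numbers are shared by the groups, but the labels give them no meaning. Same-numbered libraries correlated from -0.34 to 0.35, over 0.1 in 1 of 7 pairs, and 1 of 7 lymphoma libraries matched best with its own number, so the replicate block is not a paired analysis of the same animals. Depth limits the untested genes, most of which have 10 or fewer counts in all.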
